A study of Mus musculus with 6 samples.

Results

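The genes of glucose uptake, glycolysis, lactate export, glycogen turnover and the pentose phosphate pathway were read in F4/80high and F4/80low tumor-associated macrophages (TAMs) of a mouse melanoma. The set holds 36 genes, taken by their symbol from the 23424 genes of the count tables, and all 36 were found in each of the 6 libraries. They fall into 8 steps, with 2 glucose transporters, 3 hexokinases, 7 genes of upper glycolysis, 2 *Pfkfb* genes, 6 genes of lower glycolysis, 5 genes of the lactate and pyruvate branch, 6 glycogen genes and 5 pentose phosphate genes. YUMM1.7 is a transplantable mouse melanoma cell line. Its tumors were grown intradermally in untreated wild-type female C57Bl/6J mice that were 8 weeks old when the cells were injected, and they were taken on day 21. Live CD45+CD11b+F4/80+ cells were sorted into F4/80high and F4/80low cells, so both groups share strain, sex, genotype, tumor and age and differ by the sort gate. By the study's methods the sorted cells were also lineage-negative. RNA-seq was performed on 3 libraries of each subset, collected in 3 independent experiments, and each library pools the cells of 10 tumors, so no value belongs to a single mouse.

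Glucose enters a macrophage through facilitative transporters and is phosphorylated by hexokinases. Glycolysis then splits it in its upper steps and harvests ATP and pyruvate in its lower steps, and pyruvate can be reduced to lactate and exported or sent to the mitochondria. Glucose 6-phosphate can instead be stored as glycogen or enter the pentose phosphate pathway, which yields NADPH and ribose 5-phosphate. Many of these genes are known targets of the hypoxia-inducible factors (HIF), and macrophages are known to raise glycolysis on inflammatory activation.

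Library totals ran from 16045281 to 43604373 counts. The labels name no batch. From a plot of the libraries in the study's supplement, replicates 1 and 2 were taken as one batch and replicate 3 of both subsets as another. The 36 genes took 1.22 to 1.56% of all counts in the first batch, against 0.320% in F4/80high and 0.406% in F4/80low replicate 3, where 3 features (*Lars2*, *Gm23935* and *Gm15564*) took 17.1% and 16.1%. *Adgre1*, which encodes F4/80, stood at 273, 540 and 361 CPM (counts scaled per 1000000) in replicates 1 to 3 of F4/80high and at 243, 327 and 184 CPM in F4/80low, an order kept for all values by library. It was higher in F4/80high in 3 of 3 pairs, with overlapping groups (log2 fold change 0.67 ± 0.30, SE, adjusted p = 0.66, edgeR). All 12 markers of a macrophage list were at 1 CPM or more in all 6 libraries. CPM was scaled to the TMM-normalised library size, and every log2 fold change is F4/80high over F4/80low, so that a negative value means a higher level in F4/80low.

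Most of these genes leaned to F4/80low, but by small amounts, and the fit with batch gave no call. Of the 36 genes, 30 had a negative and 6 a positive log2 fold change, with a median of -0.22, against 49.2% negative and a median of 0.01 among all 14630 protein-coding genes tested. Because these are bulk libraries, fewer cells of a type and less RNA per cell cannot be told apart here. A gene was called where its log2 fold change was above 1 in size and its adjusted p under 0.05, and edgeR with batch called 0 of the 36 genes and 0.0% of all genes. At an unadjusted p under 0.05, 5 of the 36 were lower in F4/80high (*Slc2a3*, *Slc16a3*, *Pygl*, *Gyg* and *Taldo1*) and 0 were higher, beside 7.59% of all genes, 4.33% lower and 3.27% higher. That count of 5 was 8 without F4/80high replicate 2, 3 without F4/80low replicate 1, 2 without replicate 3 of either subset and 1 with no batch term. With the replicate number as a block, which compares libraries of the same number on the inference that they share an experiment, edgeR called *Slc2a3* and *Pygl*, both lower in F4/80high, beside 0.519% of all genes (0.287% lower in F4/80high). DESeq2 with batch called the same 2 genes, beside 1.03% of all genes (0.711% lower), and so did DESeq2 with the block, beside 2.44% (1.54% lower). With no limit on the fold change DESeq2 with batch added *Taldo1*, 3 of the 36 genes beside 1.16% of all genes.

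The lean was uneven between replicate pairs. In replicate pair 1, 33 of the 36 genes were lower in F4/80high with a median log2 difference of -0.48. In pair 2 it was 18 of 36 with a median of 0.01, and in pair 3 it was 27 of 36 with a median of -0.31. The medians of all genes tested were 0.01, -0.04 and 0.03 in the same pairs. Without F4/80high replicate 1, 23 of the 36 genes were lower in F4/80high, and without F4/80high replicate 2 it was 32. In 3 of 3 pairs, 12 of the 36 genes were lower in F4/80high and 0 were higher, beside 15.9% and 16.0% of all genes. These 12 were *Slc2a1*, *Slc2a3*, *Hk1*, *Gpi1*, *Pfkp*, *Ldhb*, *Slc16a3*, *Pygl*, *Gyg*, *G6pdx*, *Tkt* and *Taldo1*. Some of these differences were close to 0. In pair 2 *Slc2a1* gave -0.017, *Hk1* -0.011, *Ldhb* -0.008 and *G6pdx* -0.020, and in pair 3 *Pfkp* gave -0.024. Every F4/80high library stood under every F4/80low library for 2 of the 36 genes, *Slc2a3* and *Gyg*, beside 2.91% of all genes, and the reverse held for 0 of the 36, beside 2.3%.

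**Figure D1:**
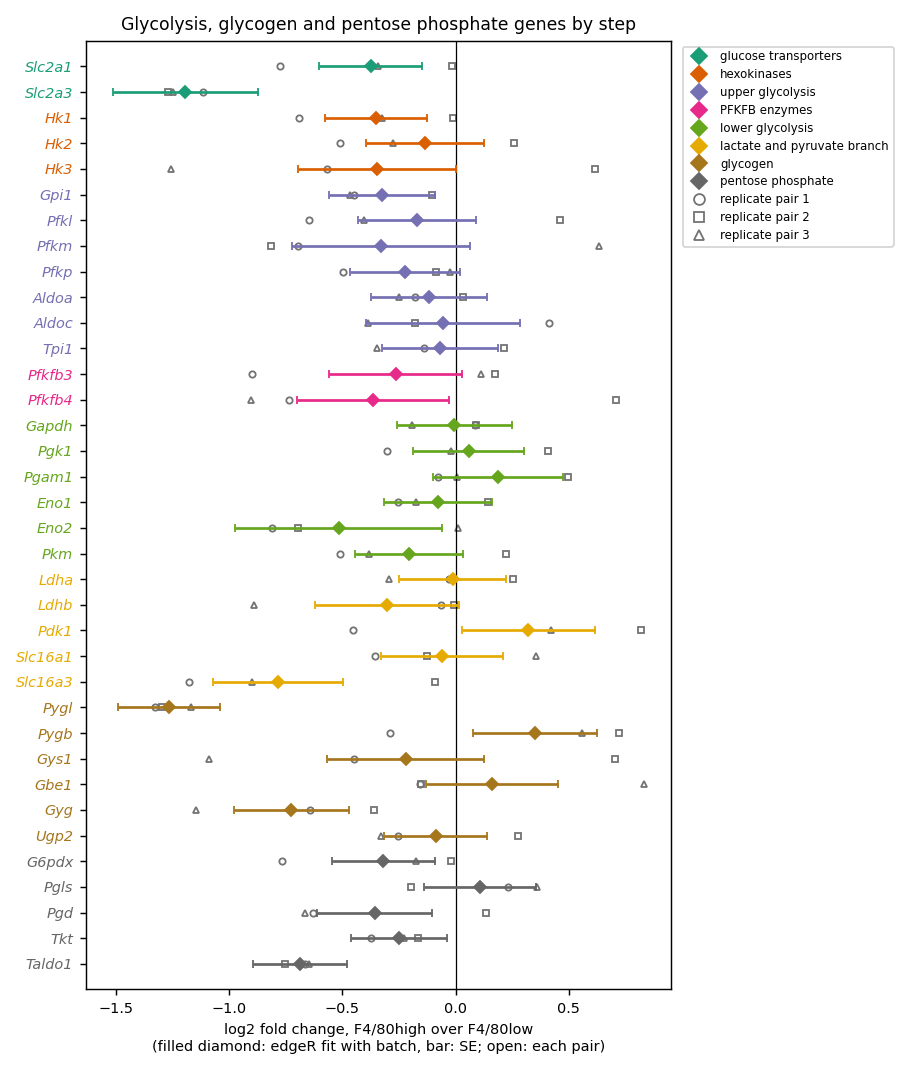
Log2 fold change of each of the 36 genes, F4/80high over F4/80low, on the x axis, with genes grouped and coloured by pathway step. Filled diamonds with bars are the edgeR fit with batch and its SE, and open circles, squares and triangles are replicate pairs 1, 2 and 3. *Slc2a3* and *Pygl* lie furthest to the left at -1.19 and -1.26 with their 3 pairs close together, while most other genes lie between -0.52 and 0.35 with pairs on both sides of 0.

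Promoter sequence is shown for *Pygl* and *Taldo1*, 2 of the 5 genes with an unadjusted p under 0.05, and for *Ldha* and *Pgk1*, known HIF targets whose fold change was near 0. Each is the 250 bases before a RefSeq transcription start (GRCm38.p6), 5′ to 3′ on the strand of the gene. Capitals mark ACGTG or GCGTG on either strand (read as CACGT or CACGC on the other), the core of the HIF binding motif. ACGTG also lies within CACGTG, the E-box read by MYC and the carbohydrate response factor, so the letters do not name a factor. The windows are chr12:70227684-70227933 (- strand) for *Pygl*, chr7:141391910-141392159 (+ strand) for *Taldo1*, chr7:46845554-46845803 (+ strand) for *Ldha* and chrX:106186850-106187099 (+ strand) for *Pgk1*. The *Pygl* window overlaps an exon of the noncoding gene *F730035M05Rik*.

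Pygl: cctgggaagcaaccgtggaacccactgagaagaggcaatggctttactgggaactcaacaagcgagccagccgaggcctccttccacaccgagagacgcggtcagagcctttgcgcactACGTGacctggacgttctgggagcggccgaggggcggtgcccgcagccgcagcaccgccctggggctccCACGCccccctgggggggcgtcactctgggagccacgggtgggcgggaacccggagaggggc

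Taldo1: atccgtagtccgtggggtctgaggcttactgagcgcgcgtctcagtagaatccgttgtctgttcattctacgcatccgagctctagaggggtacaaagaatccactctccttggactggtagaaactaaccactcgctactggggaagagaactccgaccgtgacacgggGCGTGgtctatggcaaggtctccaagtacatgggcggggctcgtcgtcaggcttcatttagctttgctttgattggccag

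Ldha: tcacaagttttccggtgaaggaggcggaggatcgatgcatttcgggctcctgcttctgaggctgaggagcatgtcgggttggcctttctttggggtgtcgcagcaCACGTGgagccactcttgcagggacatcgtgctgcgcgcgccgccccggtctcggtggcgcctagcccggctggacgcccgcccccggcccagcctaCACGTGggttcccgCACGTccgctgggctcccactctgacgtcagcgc

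Pgk1: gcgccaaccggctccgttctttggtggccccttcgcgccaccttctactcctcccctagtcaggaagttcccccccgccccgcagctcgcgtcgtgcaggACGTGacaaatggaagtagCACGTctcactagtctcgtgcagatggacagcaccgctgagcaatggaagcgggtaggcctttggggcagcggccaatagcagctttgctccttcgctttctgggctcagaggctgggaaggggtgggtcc

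The *Pygl* window held 2 matches, the *Taldo1* window 1, the *Ldha* window shown 5 (some of them overlapping) and the *Pgk1* window 2. A second *Ldha* window, not shown, held 1 match. The *Gyg* window held 1 match and the *Slc16a3* window 2. Both are not shown because they overlap annotated untranslated regions. The table of promoters held 35 of the 36 genes, with 50 windows, and did not hold *Slc2a3*. A match stood in 38 of the 50 windows, or 76%, against 38.6% of 32851 windows of the same length. Those 32851 windows were not matched to the 36 genes for base composition or expression, and the difference was not tested. Overlapping windows of *Aldoa*, *Eno1* and *Pfkm* count the same matches more than once.

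Glucose entry was the step with the lowest median, -0.78 over its 2 genes. *Slc2a3* encodes GLUT3, a high-affinity glucose transporter, and lies at chr6:122727809-122801640 on the minus strand (GENCODE M21, GRCm38). It stood at 97.3, 49.2 and 70.5 CPM in the F4/80high libraries and at 211, 118 and 167 CPM in F4/80low. The groups did not overlap, and the 3 pairs gave -1.11, -1.27 and -1.24. The level was 2.29-fold higher in F4/80low (log2 fold change -1.19 ± 0.32, SE, n = 3 per subset), with an edgeR adjusted p of 0.47 with batch and 0.038 with the replicate block. DESeq2 with batch gave an adjusted p of 0.044, and over all alternatives the adjusted p ran from 1.23e-05 to 1. *Slc2a1*, which encodes the widely expressed GLUT1, was lower in F4/80high in 3 of 3 pairs at 216, 293 and 78.9 CPM against 371, 297 and 100.1 CPM, with overlapping groups (log2 fold change -0.37 ± 0.23, SE, edgeR adjusted p = 0.71). Per length it remained the more abundant transporter, at 55.9 ± 31.0 and 73.0 ± 39.9 RPKM (SD, n = 3) in F4/80high and F4/80low, against 9.99 ± 3.33 and 22.8 ± 6.36 RPKM for *Slc2a3*.

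The 3 hexokinases, which trap glucose in the cell as glucose 6-phosphate, had log2 fold changes from -0.35 to -0.13 and adjusted p-values of 0.72 or more (edgeR). *Hk1*, the broadly expressed form, stood at 76.6, 90.4 and 34.5 CPM in F4/80high and 124, 91.1 and 43.3 CPM in F4/80low. It was lower in F4/80high in 3 of 3 pairs, but in pair 2 by 0.01 only, and the groups overlapped (log2 fold change -0.35 ± 0.23, SE, edgeR adjusted p = 0.72). *Hk2*, the inducible form, differed far more between replicates than between subsets. It stood at 34.7, 62.7 and 483 CPM in F4/80high and at 49.4, 52.4 and 585 CPM in F4/80low, so both replicate 3 libraries were far above the rest. Per kilobase *Hk2* made up 18.5 to 23.4% of the hexokinase signal in replicates 1 and 2, against 87.4% and 80.9% in replicate 3. *Hk3*, a form found mainly in blood cells, made up 48.1 to 56.7% in replicates 1 and 2. Its pairs gave -0.57, 0.61 and -1.26, with no common direction.

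Upper glycolysis runs from glucose 6-phosphate to triose phosphate. Its 7 genes all had negative log2 fold changes, from -0.33 to -0.06 with a median of -0.17, and none had an unadjusted p under 0.05. Leaving out 1 library turned 4 of them positive, *Pfkp* up to 0.0042, *Aldoa* to 0.037, *Aldoc* to 0.18 and *Tpi1* to 0.066, and *Aldoc* and *Tpi1* were also positive with no batch term. *Gpi1*, the isomerase that makes fructose 6-phosphate, had the smallest p of the step. It stood at 357, 517 and 228 CPM in F4/80high and 488, 555 and 315 CPM in F4/80low, lower in 3 of 3 pairs with overlapping groups (log2 fold change -0.32 ± 0.23, SE, edgeR adjusted p = 0.75). It shares 11.5% of its exon bases with *Gm26762* on the other strand, and reads of the pair cannot be told apart without strand. The phosphofructokinase genes *Pfkl*, *Pfkm* and *Pfkp*, the committed step, gave -0.17, -0.33 and -0.22, and their shares of the enzyme's signal per kilobase overlapped between the subsets. *Pfkl* led with 58.7 ± 8.78% in F4/80high and 58.6 ± 2.81% in F4/80low (SD, n = 3). The aldolases *Aldoa* and *Aldoc* gave -0.12 and -0.06 and the triose phosphate isomerase *Tpi1* -0.07, each under its SE. *Pfkfb3* and *Pfkfb4*, whose enzymes make the activator of phosphofructokinase, gave -0.26 and -0.37. *Pfkfb4* stood at 42.2, 52.5 and 21.3 CPM in F4/80high and 70.2, 32.1 and 39.9 CPM in F4/80low, higher in F4/80high in pair 2 and lower in pairs 1 and 3 (log2 fold change -0.37 ± 0.33, SE, edgeR adjusted p = 0.81).

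Lower glycolysis, from glyceraldehyde 3-phosphate to pyruvate, lay nearest to 0 of all steps, with a median of -0.04, which was 0.0898 without F4/80high replicate 1. *Gapdh* gave -0.01, *Pgk1* 0.06, *Eno1* -0.08 and *Pkm* -0.21, each under its SE of 0.24 to 0.25. *Pgam1*, the phosphoglycerate mutase, had the largest positive value of the step. It stood at 173, 336 and 28.2 CPM in F4/80high and 182, 238 and 28.1 CPM in F4/80low, with groups that overlapped (log2 fold change 0.19 ± 0.29, SE, edgeR adjusted p = 0.91). *Eno2*, the neuronal enolase, gave the most negative value at 3.61, 3.26 and 3.68 CPM against 6.33, 5.29 and 3.65 CPM (log2 fold change -0.52 ± 0.46, SE, edgeR adjusted p = 0.80), and replicate 3 held only 34 and 32 counts of it. *Pkm*, the pyruvate kinase gene, had the highest mean level of the 36 genes per length, at 556 ± 321 RPKM in F4/80high and 620 ± 285 RPKM in F4/80low (SD, n = 3). *Gapdh*, by contrast, stood at only 18.2 ± 3.87 and 18.5 ± 5.43 RPKM, beside 150 ± 47.8 and 144 ± 19.8 RPKM for *Pgk1*, the next enzyme of the same pathway. *Gapdh*, *Pgk1*, *Pgam1*, *Eno1*, *Aldoa* and *Ldha* have near-identical copies in the genome, and how reads shared with a copy were counted is not given in the sources used here, so their levels are uncertain. Among the few copies read here by name, the largest count was 6.13% of the gene itself, for *Pgam1-ps2*. Copies under other names were not read, so this share is no upper limit. *Pkm* also shares 15.3% of its exon bases with *Gm49759* on the same strand.

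Past pyruvate, *Ldha* was near 0 while the lactate exporter *Slc16a3* was lower in F4/80high without passing the adjusted test. *Ldha*, whose enzyme reduces pyruvate to lactate, stood at 1364, 1901 and 678 CPM in F4/80high and 1390, 1596 and 832 CPM in F4/80low (log2 fold change -0.01 ± 0.24, SE, edgeR adjusted p = 0.996), and it made up 98.3 ± 0.314% and 97.9 ± 0.457% of lactate dehydrogenase signal per kilobase. *Slc16a3* encodes MCT4, the lactate exporter of glycolytic cells (chr11:120948480-120960868, plus strand). It stood at 367, 377 and 928 CPM in F4/80high and 829, 402 and 1729 CPM in F4/80low. It was lower in F4/80high in 3 of 3 pairs, by -1.18, -0.09 and -0.90, while the groups overlapped (log2 fold change -0.78 ± 0.29, SE, unadjusted p = 0.023 and adjusted p = 0.58, edgeR). With the replicate block the edgeR adjusted p was 0.30. *Slc16a1*, which encodes MCT1, gave -0.06 and the lactate dehydrogenase gene *Ldhb* -0.30. *Pdk1* encodes a kinase that inhibits pyruvate dehydrogenase, which turns pyruvate into acetyl-CoA in the mitochondria. *Pdk1* stood at 45.3, 94.3 and 47.9 CPM in F4/80high and 62.1, 53.5 and 35.9 CPM in F4/80low. It was higher in F4/80high in pairs 2 and 3 and lower in pair 1 (log2 fold change 0.32 ± 0.29, SE, edgeR adjusted p = 0.81).

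**Figure D2:**
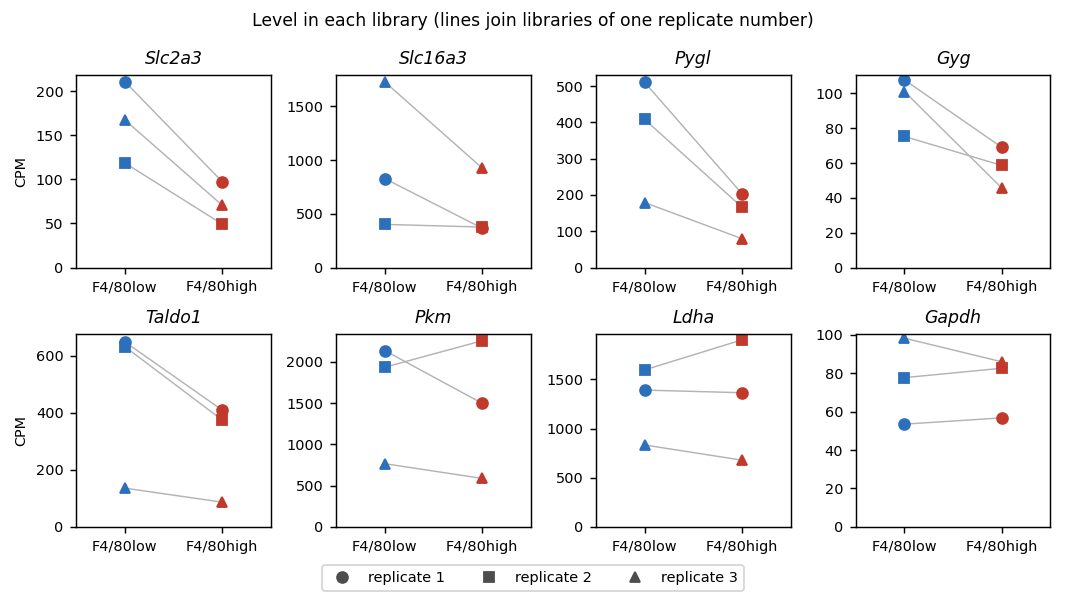
Level in each library in CPM on the y axis, each panel from 0, for the 5 genes with an unadjusted p under 0.05 and for *Pkm*, *Ldha* and *Gapdh*. Blue is F4/80low, red is F4/80high, symbols are replicates and lines join the libraries of one replicate number. All lines slope down toward F4/80high for *Slc2a3*, *Slc16a3*, *Pygl*, *Gyg* and *Taldo1*, with the *Slc16a3* line of replicate 2 nearly flat at 402 and 377 CPM, while the lines of *Pkm*, *Ldha* and *Gapdh* run both ways.

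Among the glycogen genes, the enzyme of breakdown had the smallest p of all 36 genes. *Pygl* encodes the liver form of glycogen phosphorylase, which releases glucose 1-phosphate from glycogen (chr12:70190811-70231488, minus strand). It stood at 204, 166 and 79.6 CPM in the F4/80high libraries and at 510, 408 and 179 CPM in F4/80low. Each F4/80high library was under its own F4/80low partner, by -1.32, -1.29 and -1.17, but the groups overlapped because both replicate 3 libraries were lower. The level was 2.40-fold higher in F4/80low (log2 fold change -1.26 ± 0.22, SE, n = 3 per subset). The edgeR adjusted p was 0.43 with batch, from an unadjusted p that ranked 8 of 14630 genes, and 0.031 with the replicate block. DESeq2 with batch gave an adjusted p of 4.56e-05, and over all alternatives the adjusted p ran from 8.13e-07 to 1. *Gyg*, the glycogenin gene that primes a new glycogen particle (chr3:20122084-20155317, minus strand), stood at 69.0, 58.6 and 45.7 CPM against 108, 75.3 and 101 CPM. Its groups did not overlap and its pairs gave -0.64, -0.36 and -1.15 (log2 fold change -0.72 ± 0.25, SE, unadjusted p = 0.018 and adjusted p = 0.54, edgeR).

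Of the other 4 glycogen genes, 2 had negative and 2 positive values, none past the test. *Pygb*, the brain form of the phosphorylase, stood at 34.4, 56.6 and 20.0 CPM in F4/80high and 41.9, 34.4 and 13.6 CPM in F4/80low, higher in F4/80high in pairs 2 and 3 (log2 fold change 0.35 ± 0.27, SE, edgeR adjusted p = 0.77). Glycogen synthase *Gys1* gave -0.22, the branching enzyme *Gbe1* 0.16 and *Ugp2*, which makes UDP-glucose, -0.09, each with pairs on both sides of 0. The share of each phosphorylase form was also read within each library. *Pygl* made up 88.2, 78.7 and 83.3% of the phosphorylase signal per kilobase in the F4/80high libraries and 93.9, 93.7 and 94.3% in those of F4/80low, with *Pygb* as the rest. All F4/80high libraries lay under all F4/80low libraries (83.4 ± 4.73% against 94.0 ± 0.303%, SD, n = 3; two-sided exact permutation test p = 0.1, the smallest that 3 against 3 allows, and 0.9 adjusted over 9 isozyme families). The *Slc2a3* share of the 2 glucose transporters was 18.5 ± 11.4% against 27.5 ± 15.1%, lower in F4/80high in 3 of 3 pairs with overlapping groups (exact permutation p = 0.5). In the other 7 families the exact permutation p was 0.4 or more.

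**Figure D3:**
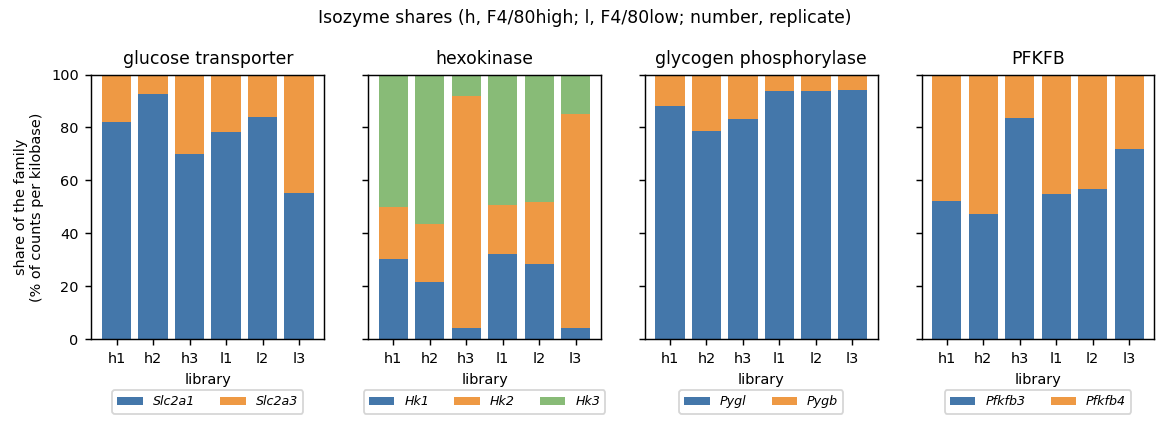
Share of each isozyme in its family, in percent of counts per kilobase on the y axis, for the glucose transporters, hexokinases, glycogen phosphorylases and *Pfkfb* genes; each bar is a library (h, F4/80high; l, F4/80low; number, replicate). *Pygl* (blue) takes 78.7 to 88.2% of the phosphorylase bars of F4/80high and 93.7 to 94.3% of F4/80low, and *Hk2* (orange) takes over the hexokinase bars of both replicate 3 libraries.

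The pentose phosphate genes had a median log2 fold change of -0.32. *Taldo1*, transaldolase, which links the sugar phosphates of this pathway back to glycolysis (chr7:141392199-141402968, plus strand), stood at 409, 374 and 86.5 CPM in F4/80high and 648, 631 and 136 CPM in F4/80low. Its 3 pairs gave nearly one value, -0.66, -0.75 and -0.65, although both replicate 3 libraries were low and the groups overlapped. The level was 1.61-fold higher in F4/80low (log2 fold change -0.69 ± 0.21, SE, unadjusted p = 0.0087 and adjusted p = 0.50, edgeR). The adjusted p was 0.17 in edgeR with the replicate block and 0.034 in DESeq2 with batch, and the fold change is under the limit set for a call. The oxidative enzymes that make NADPH, *G6pdx* and *Pgd*, gave -0.32 and -0.36, and transketolase *Tkt* gave -0.25 with all 3 pairs negative. *Pgls*, the lactonase between them, was the one gene of the step with a positive value, at 64.3, 73.3 and 51.3 CPM against 54.8, 84.1 and 40.0 CPM (log2 fold change 0.11 ± 0.25, SE, edgeR adjusted p = 0.94). It shares 20.6% of its exon bases with *Fam129c* on the same strand, and *G6pdx* shares 13.6% with *Ikbkg* on the other, so their counts may hold reads of those genes.

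More of these genes differed between the batches than between the subsets. Of the 36 genes, 21 differed between the batches at an adjusted p under 0.05 in the same edgeR fit, 18 lower and 3 higher in replicate 3, beside 42.6% of all genes (22.7% lower). Their median difference was -0.79 on the log2 scale, against -0.35 for all genes. *Tpi1* (-3.05), *Pgam1* (-3.04) and *Aldoc* (-2.81) were the lowest, while *Hk2* (3.42), *Slc16a3* (1.41) and *Pfkfb3* (0.96) were higher in replicate 3. The scaling moved these values. With library size alone the median of all genes was -1.37 and that of the 36 genes -1.81, 32 of the 36 differed, and *Pfkfb3* turned to -0.05, while *Hk2* stayed at 2.40. Neighbouring steps of one pathway gave unlike values, since *Pgk1*, which lies between *Tpi1* and *Pgam1*, gave -0.42 and did not pass the test. Batch, depth and the 3 abundant features came with the same 2 libraries and cannot be told apart.

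**Figure D4:**
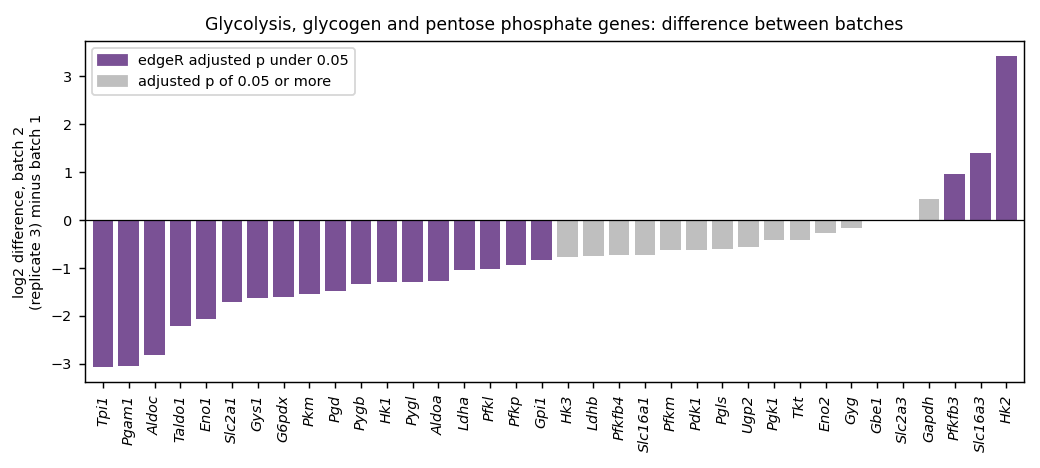
Log2 difference of each of the 36 genes between batch 2 (replicate 3 of both subsets) and batch 1 on the y axis, from the edgeR fit with TMM scaling, with genes ordered by value. Purple bars have an adjusted p under 0.05. The bars run from -3.05 for *Tpi1* to 3.42 for *Hk2*.

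Genes of the same pathways outside the set gave no common direction. None of the other glycolysis and pyruvate, gluconeogenesis, glycogen, pentose phosphate, HIF or hypoxia-inducible genes was called by edgeR with batch. That fit called 0.0% of all genes, so the lack of calls says nothing particular to these lists. Of 23 other glycolysis and pyruvate genes tested, 1 was higher (*Tigar*) and 2 were lower (*Eno3* and *Pdk3*) in F4/80high at an unadjusted p under 0.05, with a median log2 fold change of 0.10. Among all genes 3.27% were higher and 4.33% lower at this limit (edgeR with batch). The counts of the lists below stand beside the same shares. *Tigar*, whose product lowers the activator of phosphofructokinase, stood at 5.53, 9.72 and 2.49 CPM against 2.89, 3.30 and 1.60 CPM (log2 fold change 1.11 ± 0.48, SE, edgeR adjusted p = 0.65). Muscle enolase *Eno3* stood at 11.3, 10.4 and 11.0 CPM against 22.6, 18.8 and 17.4 CPM without overlap (log2 fold change -0.84 ± 0.28, SE, edgeR adjusted p = 0.52). Of 8 gluconeogenesis genes, *Slc37a2*, a sugar phosphate exchanger, was higher at 0.96 ± 0.33 (log2 fold change and SE), and *Pck1* was at 0 counts in all F4/80high libraries and at 0.276, 0.615 and 1.03 CPM in F4/80low. Of 19 other glycogen genes 1 was lower, *Ppp1r3d*, which targets a phosphatase to glycogen, at 21.4, 17.7 and 6.06 CPM against 46.3, 26.5 and 13.9 CPM (log2 fold change -0.99 ± 0.30, SE, edgeR adjusted p = 0.50). Of 8 other pentose phosphate genes 1 was higher, the phosphoribosyl pyrophosphate synthetase gene *Prps2*, at 33.8, 42.9 and 47.6 CPM against 13.8, 19.2 and 37.1 CPM (log2 fold change 0.94 ± 0.29, SE, edgeR adjusted p = 0.51).

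The hypoxia lists were likewise mixed, and their counts stand beside 4.33% of all genes lower and 3.27% higher at an unadjusted p under 0.05 (edgeR with batch). Of 20 hypoxia-inducible genes outside metabolism 1 was lower at an unadjusted p under 0.05, *Vegfa*, the angiogenic growth factor, at 350, 288 and 294 CPM in F4/80high and 584, 489 and 397 CPM in F4/80low without overlap (log2 fold change -0.65 ± 0.22, SE, edgeR adjusted p = 0.54). The median of that list was -0.11, with 12 of 20 genes lower. Of 13 HIF pathway genes and regulators 1 was lower, *Egln3*, a prolyl hydroxylase that HIF itself induces, at 42.2, 50.0 and 24.0 CPM against 78.6, 73.7 and 36.4 CPM (log2 fold change -0.68 ± 0.22, SE, edgeR adjusted p = 0.52). The median of that list was 0.08, with 4 of 13 genes lower.

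Markers of other cells differed between the subsets, many lower and some higher in F4/80high. The 12 neutrophil markers summed to 2150, 935 and 754 CPM in the F4/80high libraries and to 4914, 3140 and 1536 CPM in F4/80low, lower in 3 of 3 pairs, and all 12 had negative log2 fold changes with a median of -1.16. None was at 0 in all libraries, and the defining marker *Ly6g* stood at 1.19 to 4.62 CPM in F4/80high and 1.48 to 8.89 CPM in F4/80low. The 8 monocyte markers summed to 2465 to 5362 CPM against 3591 to 9765 CPM and the 10 eosinophil markers to 99.2 to 197 CPM against 277 to 653 CPM, both lower in F4/80high in 3 of 3 pairs. The 12 macrophage markers were higher in F4/80high in 3 of 3 pairs, at 6803 to 30210 CPM against 5797 to 13269 CPM. The sums of the fibroblast, dendritic cell, mast cell and basophil, endothelial and erythroid lists were lower in F4/80high in 3 of 3 pairs. Those of the cell cycle and melanoma lists were higher in 3 of 3. Only 2 of 8 endothelial and 2 of 10 melanoma markers listed were at 1 CPM or more in all libraries. The endothelial genes tested split into 3 higher, *Kdr* among them (log2 fold change 0.96 ± 0.40, SE), and 3 lower. *Mitf* and *Gpnmb* held most of the melanoma sum, at 167 and 27.1 of 196 CPM in F4/80high replicate 3. The T and NK cell and the B and plasma cell sums were lower in F4/80high in 1 of 3 pairs only, pair 2. The T and NK cell sum stood at 1370, 410 and 225 CPM in F4/80high and 477, 637 and 113 CPM in F4/80low. All 9 T and NK cell genes tested had positive log2 fold changes (median 0.79), and all 10 listed were at 1 CPM or more in all libraries. The part of these cells in the values of *Pygl*, *Slc2a3*, *Gyg*, *Taldo1* and *Slc16a3* was not tested.

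**Figure D5:**
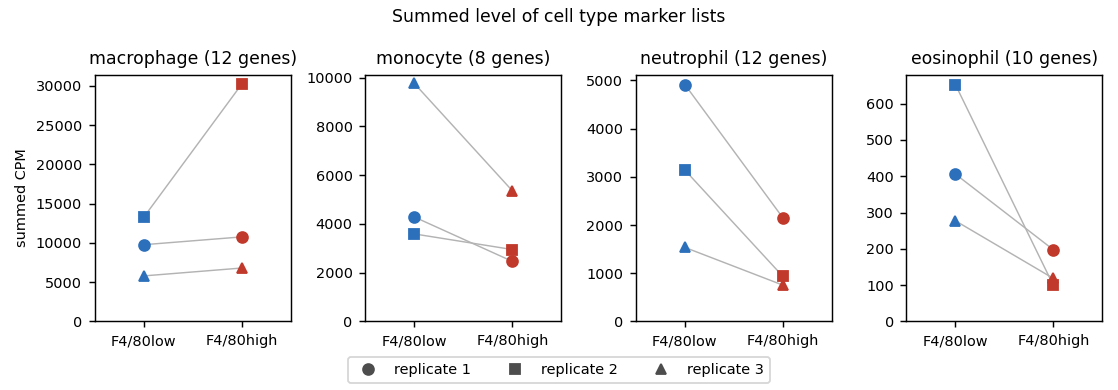
Summed CPM of 4 marker lists in each library, F4/80low in blue and F4/80high in red, with symbols for replicates and lines joining the libraries of one replicate number; each y axis starts at 0. The macrophage sum is higher in F4/80high in 3 of 3 pairs, and the monocyte, neutrophil and eosinophil sums are lower in 3 of 3.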

How the data were processed

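RNA-seq was done on 6 libraries of poly(A) RNA, 3 of F4/80high and 3 of F4/80low TAMs. The authors deposited raw read counts per gene, with no normalization, with each gene's length and biotype. The aligner, counting rule, strand and annotation are not given in the sources used here. Of the 23424 gene IDs, 99.3% matched GENCODE M21 (GRCm38), which gave biotypes and positions. Groups came from the labels, and batches (replicate 3 apart) were read from a plot in the study's supplement, since the labels name none. Depth ran from 16045281 to 43604373 counts, so that 3 counts are 0.0688 to 0.187 CPM.

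Counts were tested in R 4.3.3 with edgeR 4.0.16 (quasi-likelihood, TMM, terms for batch and subset) over 14630 protein-coding genes with at least 10 counts in all, with Benjamini-Hochberg adjustment and calls where the log2 fold change was above 1 in size and the adjusted p under 0.05. RPKM used the deposited length. Isozyme shares were tested by a two-sided exact permutation test (scipy 1.17.1). Only edgeR with batch, edgeR with the replicate block and DESeq2 with batch were also run on simulated counts with known changes. The isozyme shares, pathway step medians and promoter matches were not. The labels name no animal or culture for a library, so p-values measure the spread between these pooled libraries.

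That libraries of the same number share an experiment is an inference from the labels' numbers and these correlations. Over 10433 genes the distances of partner libraries from their subset mean had an r of 0.745, 0.727 and 0.902, against 0.628 and 0.606 for the unpartnered libraries of replicates 1 and 2, which share a batch. Replicate 3 is alone in its batch, so its 0.902 also holds the batch difference, and only replicates 1 and 2 bear on the pairing. The alternatives were DESeq2 1.42.0, the replicate block, RLE or library size scaling, no batch term, other filters and gene sets, an adjusted p alone, and leaving out libraries. DESeq2 with the block, the biotype of the tables, and the block without replicate 1 were chosen after seeing the data. Named in each step were the genes with the smallest p in each direction. Each gene called by edgeR with batch, edgeR with the block or DESeq2 was also named. So were both forms of an isozyme family whose share did not overlap. From each other pathway or hypoxia list, up to 3 genes in each direction were planned. Of these, those with an unadjusted p under 0.05 in the edgeR fit with batch were named, and *Pgam2* was named for its DESeq2 call. *Hk2*, *Slc2a1*, *Gyg*, *Ldha*, *Pkm* and *Gapdh* were added after their values were seen. The members and lists were chosen with earlier results of these data known.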

Additional observations from a re-analysis of the deposited data

How the results depend on the processing

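The fit with the replicate block, which follows the inferred pairing of the libraries, called 2 of the 36 genes (*Slc2a3* and *Pygl*) where the fit with batch called 0, as did DESeq2 with batch, DESeq2 with the block, and edgeR with the block without replicate 1 of both subsets (2 each). All other alternatives called 0 of the 36 genes, each single library left out included. These fits also called 0 of all genes tested, except the fit without F4/80high replicate 1, which called 57 of 14392. DESeq2 with the block called 1 other glycolysis gene, *Pgam2*, beside 2.44% of all genes. *Pgam2* stood at 2.27, 0.311 and 2.16 CPM in F4/80high and 3.26, 2.26 and 15.3 CPM in F4/80low. It was lower in F4/80high in 3 of 3 pairs with overlapping groups (log2 fold change -1.65 ± 0.76, SE, edgeR with batch adjusted p = 0.68). F4/80high replicate 2 held only 16 counts of it. The number of genes with an unadjusted p under 0.05 was 1 with no batch term, 2 without replicate 3 of both subsets and 2 to 8 with 1 library left out. Median log2 fold changes ranged from -0.93 to -0.60 for the glucose transporters and from -0.27 to 0.0898 for lower glycolysis with 1 library left out, and 32 genes differed between batches with library size alone. Log2 fold changes near 0 changed sign with no batch term for *Aldoc* (0.035), *Tpi1* (0.043) and *Ldha* (0.046). Those of *Gapdh* turned to 0.000718 in DESeq2, 0.000648 with RLE, 0.018 with all genes and 0.028 with library size alone, and those of *Ldha* to 0.011 and 0.024 in the last 2. Without replicate 3 of both subsets the values were 0.084 for *Hk3*, 0.067 for *Aldoc*, 0.067 for *Tpi1*, 0.088 for *Gapdh*, 0.13 for *Ldha*, 0.16 for *Gys1*, -0.15 for *Gbe1*, 0.029 for *Ugp2* and -0.012 for *Pgls*. With 1 library left out, sign changes gave the ranges *Hk2* -0.47 to 0.056, *Hk3* -0.80 to 0.084, *Pfkp* -0.36 to 0.0042, *Aldoa* -0.38 to 0.037, *Aldoc* -0.32 to 0.18, *Tpi1* -0.35 to 0.066, *Pfkfb3* -0.47 to 0.13, *Gapdh* -0.23 to 0.13, *Pgk1* -0.21 to 0.23, *Pgam1* -0.20 to 0.41, *Eno1* -0.32 to 0.067, *Ldha* -0.23 to 0.13, *Pdk1* -0.056 to 0.59, *Slc16a1* -0.25 to 0.11, *Gys1* -0.61 to 0.16, *Gbe1* -0.16 to 0.33, *Ugp2* -0.30 to 0.029, *Pgls* -0.021 to 0.34. The causes were not tested. *Slc2a3*, *Pygl*, *Slc16a3*, *Gyg* and *Taldo1*, picked by their p in these same libraries, stayed lower in F4/80high under every alternative. So did others of the 36 genes, *Slc2a1*, *Hk1*, *Gpi1*, *Ldhb*, *G6pdx* and *Tkt* among them. The isozyme shares could not pass 0.05 with 3 libraries against 3.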
